A study of Mus musculus with 68 samples.

Results

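Transcripts of 38 antioxidant and glutathione genes were examined in dopamine neurons of the ventral tegmental area from 3xTg and WT mice. The members were chosen by gene symbol, and all 38 were found among the 36172 genes of the deposited table. The data are from Patch-seq, in which the contents of a recorded neuron are drawn into the patch pipette and sequenced, and comprise 33 3xTg cells and 35 WT cells. The 3xTg mice were homozygous for transgenes of mutant human amyloid precursor protein, presenilin and tau, on a hybrid background (per the study's methods, C57BL/6;129×1/SvJ;129S1/Sv embryos, injected into B6;129). The WT line had that hybrid background without the transgenes and was kept in parallel. Mice were about a year old, and males and females were pooled. Brain slices of both genotypes were held in solution with N-acetyl-L-cysteine, ascorbate and pyruvate, which are themselves antioxidants or scavengers of peroxide. The study's methods state that cells positive for Th, Slc6a3 and Slc18a2 and negative for Pvalb, Tmem119, P2ry12 and Aldh1l1 were kept. In the deposited counts, however, Pvalb was counted in 3 of these cells, P2ry12 in 7 and Tmem119 in 1. The labels name no mouse for any cell, so each genotype was treated as 1 sample, and no test between genotypes was made.

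Superoxide from respiration is converted by superoxide dismutases to hydrogen peroxide, which catalase, glutathione peroxidases and peroxiredoxins reduce to water. Glutathione peroxidases draw their electrons from glutathione and most peroxiredoxins draw theirs from thioredoxin, and both carriers are recharged by reductases that use NADPH. Dopamine neurons carry an added oxidant load, because oxidation of dopamine by monoamine oxidase and its self-oxidation both yield peroxide. Many of the enzymes are induced by the transcription factor NRF2 (Nfe2l2), which binds antioxidant response elements and is held back by KEAP1.

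To show where such an element lies in these genes, promoter windows (RefSeq, GRCm38.p6, 250 bases before to 50 after a start) were searched on both strands for its core, TGACNNNGC. Of the 38 members, 31 had a window, and 7 of these held the core (22.6%), against 14% of all 27025 genes with a window. The 7 genes were Gclm, Txnrd1, Prdx1, Sod1, Gstm5, Nfe2l2 and Srxn1, the last with the core after its start. Among the 24 members with a count in at least 50% of all cells, only Gclm and Txnrd1 had a summed level at most 1/1.5 as high in 3xTg. The sequences shown are those of Gclm and Txnrd1, and of Prdx1 and Sod1, which were counted in nearly every cell. They read from 5′ to 3′ on the strand of the gene, with the core in capitals, and all 4 carry it on the other strand as GCNNNGTCA.
Gclm, chr3:122245413-122245441, + strand: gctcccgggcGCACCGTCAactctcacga
Txnrd1, chr10:82859104-82859132, + strand: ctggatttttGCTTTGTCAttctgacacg
Prdx1, chr4:116685456-116685484, + strand: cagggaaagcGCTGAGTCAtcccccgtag
Sod1, chr16:90220696-90220724, + strand: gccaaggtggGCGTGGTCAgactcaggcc
The core began 134 bases before the start of its window's transcript in Gclm, 133 in Prdx1 and 56 in Sod1. In Txnrd1 it began 92 bases before an alternative start that lies inside the gene, not before the gene's first base (chr10:82833951). A match is a run of letters and not a measured binding site.

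Each cell's estimated counts totaled 676556 to 1678624 in 3xTg and 492505 to 1327367 in WT. The dopaminergic markers Th, Slc6a3, Slc18a2 and Ddc were counted in all 68 cells, and over the 8 of 10 such markers past the filter described next the median log2 ratio of summed levels, 3xTg over WT, was 0.31. By label number the cells form 5 blocks, called runs here: 17 WT cells (1 to 22), 21 3xTg cells (24 to 55), 15 WT cells (57 to 74), 12 3xTg cells (76 to 92) and 3 WT cells (94 to 96). The sources used here do not say what a number stands for. Genotype values are therefore also given for the first 3xTg run over the first WT run (the first runs) and for the second over the second (the second runs). The summed level of 10 microglia markers ranged from 0 to 13102 CPM (counts scaled to the same total in each library) per cell in 3xTg (median 148) and from 0 to 7811 CPM in WT (median 245). It exceeded 1000 CPM in 2 3xTg and 10 WT cells, of which 8 were among the 17 cells of WT 1 to 22, so that leaving these cells out also thins that run. Among its defining markers, Tmem119 was at 0 in all 3xTg cells and was counted in 1 WT cell, and P2ry12 was counted in 4 and 3 cells. Without these 12 cells the 1.5-fold calls of Cat, Gss and Txnrd1, given with each gene, were lost, Txn1 and Glrx passed the limit, and the signs of Gpx1, Gsta4 and Hmox2 turned. The 8 astrocyte markers summed to between 11.6 and 924 CPM per cell in 3xTg and between 6.13 and 2679 CPM in WT, with Aldh1l1 at 0 in all cells. The 8 oligodendrocyte markers summed to between 7.28 and 634 CPM in 3xTg and between 9.92 and 2540 CPM in WT. All 3 lists were lower in 3xTg when summed over cells. Microglia markers were at 448 against 1094 CPM, astrocyte markers at 265 against 419 CPM and oligodendrocyte markers at 115 against 317 CPM. Single markers did not all move this way. Of the microglia markers, C1qc (log2 ratio 1.82) and Cx3cr1 (0.27) were higher in 3xTg. Of the astrocyte markers, Slc1a2 was counted in all 68 cells, with 235 CPM in 3xTg and 232 CPM in WT. A single cell held 45.1% of the WT sum of Slc1a3, and a single cell 94.8% of that of Gja1. Among the oligodendrocyte markers the log2 ratio was −1.75 for Mbp (−2.33 and −0.71 between the runs) and −0.84 for Mobp (−0.37 and 0.52). For Mobp 1 cell held 48.6% of the WT sum, and without WT 95 the ratio was 0.09. Ermn, also past the filter, was at −0.14 (0.90 and −0.94). Mog was counted in 2 cells and Cldn11 in 1 cell, all of them 3xTg. The part of astrocytes and oligodendrocytes in the results was not tested.

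The members spanned the whole range of detection. At least 1 count was present in at least 90% of cells for 6 members, namely Sod1, Sod2, Gpx4, Prdx1, Prdx2 and Gstp1. At the other end, 5 members were counted in at most 9 of 68 cells: Sod3 in 2, Nfe2l2 in 3, Hmox1 in 3, Gpx7 in 5 and Nqo1 in 9. A count was present in at least 50% of all cells for 24 members, and summed levels were compared for these. The 14 members short of this do not enter the main counts of higher or lower members. Some of them enter the counts given at the end for another filter or a part of the cells. A shortage of captured RNA and a lower level of a transcript cannot be told apart in a cell with no count.

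**Figure D1:**
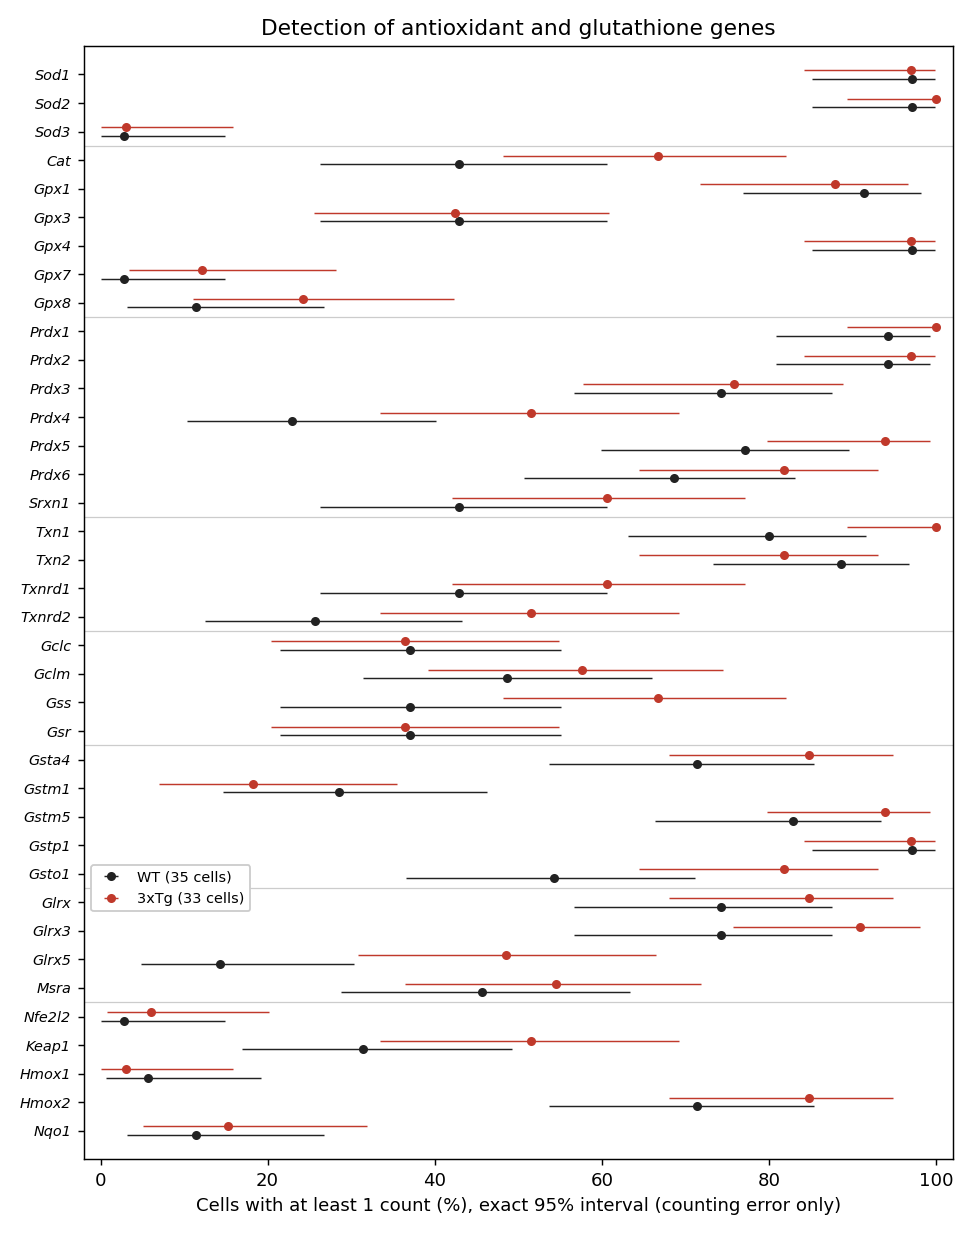
Share of cells with at least 1 count (x axis, percent) for each of the 38 members (y axis, grouped by role), in 33 3xTg cells (red) and 35 WT cells (black). Bars are exact 95% intervals for counting error. The share for Txn1 was 100% in 3xTg and 80% in WT, and that for Glrx5 48.5% and 14.3%.

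A 3xTg cell held a count for 12 to 31 members (median 25) and a WT cell for 10 to 30 (median 20). The number of all genes counted per cell moved the same way, from 3695 in the lowest 3xTg cell to a median of 8511, and from 3770 to a median of 7476 in WT. By run, the median of genes counted was 5233 in WT 1 to 22 and 7648 in 3xTg 24 to 55. It was 8441 in WT 57 to 74 and 9308 in 3xTg 76 to 92. Across the 68 cells, members counted and genes counted had a Pearson r of 0.83 and a Spearman rho of 0.82, which is a description, as both measures share the library. When 61 cells were thinned to 700471 counts, the medians were 25 members in 3xTg and 20.5 in WT. Without thinning, the median among label runs was 19 in WT 1 to 22 and 23 in 3xTg 24 to 55. It was 21 in WT 57 to 74 and 27 in 3xTg 76 to 92. In thinned cells these medians were 19, 23, 24 and 26.5 in the same order, so WT 57 to 74 stood above 3xTg 24 to 55. Thus cells of each genotype also differed between runs.

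**Figure D2:**
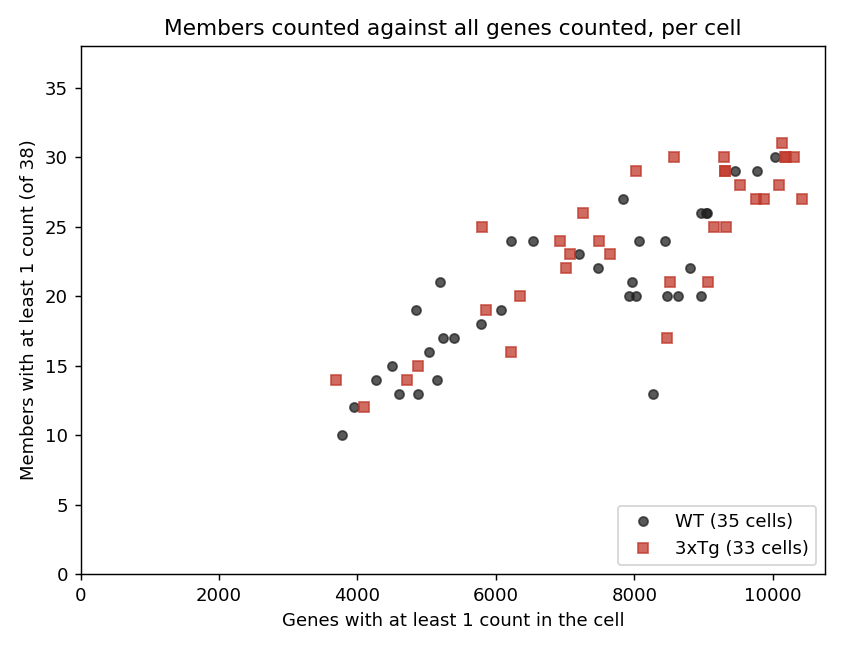
Members with at least 1 count (y axis, of 38) against all genes with at least 1 count (x axis) in each of 33 3xTg (red squares) and 35 WT (black circles) cells. Members and genes counted rose together with scatter (Pearson r 0.83), and cells held from 10 members (WT 11, with 3770 genes) to 31 (3xTg 90, with 10136 genes).

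Summed over cells, the 38 members made up 4963 CPM of all counts in 3xTg and 4377 CPM in WT. A gene was called higher if its summed CPM was at least 1.5 times as high in 3xTg, and lower if at most 1/1.5 as high. Its mean of log2(normalized count + 1) over cells, relative to the median gene, also had to move the same way. Of the 24 members compared, 2 were called higher (Cat and Gss), against 11.8% of the 7304 genes past the same filter. Called lower were 2 members (Gclm and Txnrd1), against 16.3% of genes. The other 20 members lay between these limits. A log2 ratio above 0 was found for 16 of the 24, against 46.8% of genes, and one below 0 for 8, against 53.2%. The median log2 ratio of the 24 members was 0.21, and that of all 7304 genes was −0.05. With log2(normalized count + 1) averaged over cells, the median member was 0.92 higher in 3xTg and the median gene 0.51 higher, a gap of 0.41. With no animal named, none of these values has an error across mice.

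Between the first runs the median log2 ratio of the 24 members was 0.10, against 0.13 for all genes past the filter, and between the second runs it was 0.31, against −0.16. The ratio was above 0 in both pairs of runs for 10 members, namely Sod1, Cat, Prdx1, Prdx2, Prdx5, Txn1, Gss, Gstp1, Glrx and Glrx3. Across all genes past the filter this was so for 25.5%. It was below 0 in both pairs for Gclm, Txnrd1 and Msra, 3 of 24 members, against 24.9% of genes, with Msra at −0.0002 between the first runs. The remaining 11 members had opposite signs, as had 49.5% of genes.

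**Figure D3:**
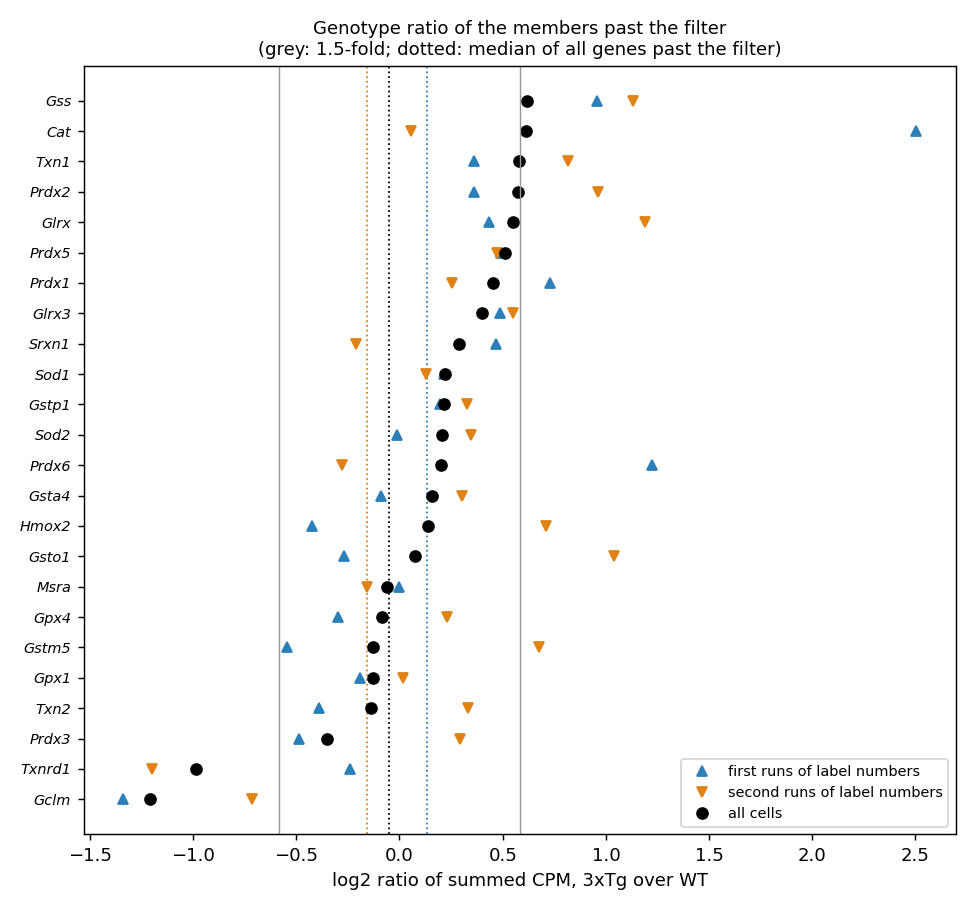
Log2 ratio of summed CPM, 3xTg over WT (x axis), for the 24 members past the filter (y axis), over all cells (black circles), between the first runs (blue triangles up) and between the second runs (orange triangles down). Grey lines mark 1.5-fold and dotted lines the median of all genes in the same color. Gclm lies beyond the lower 1.5-fold line in all 3 comparisons, and Cat is at 2.50 between the first and 0.06 between the second runs.

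Glutathione is made in a pair of steps, of which glutamate-cysteine ligase, with catalytic subunit Gclc and modifier subunit Gclm, catalyzes the first and rate-limiting one, and glutathione synthetase (Gss) the next. Gss (chr2:155563183-155592706, − strand, mm10) had the largest summed count of this group. Per cell, its normalized count lay between 0 and 290 in 3xTg cells (median 26.6) and between 0 and 311 in WT cells (median 0). The groups overlap over almost their full range, and more WT than 3xTg cells were at 0. Gss was counted in 22 of 33 3xTg cells (66.7%, exact 95% CI, for counting error, 48.2% to 82%) and in 13 of 35 WT cells (37.1%, CI 21.5% to 55.1%). Summed counts were 1780 (CI 1698 to 1865) in 3xTg and 1074 (CI 1011 to 1140) in WT, a log2 ratio of 0.62 that was 0.96 between the first and 1.13 between the second runs. The 3 cells WT 94 to 96 stood highest, with 127 CPM, against 22.4 and 25.5 CPM in the other WT runs and 43.4 and 55.8 CPM in the 3xTg runs. Leaving out cell 3xTg 78 gave 0.44, leaving out WT 94 gave 1.03, and leaving out the 12 microglia-rich cells gave 0.51, so the 1.5-fold limit (0.58) was met in some settings and not in others.

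Gclm (chr3:122245557-122267215, + strand) went the other way. Normalized counts per cell lay between 0 and 128 in 3xTg cells (median 4.40) and between 0 and 251 in WT cells (median 0). A similar share of cells held a count, 19 of 33 in 3xTg (57.6%, CI 39.2% to 74.5%) and 17 of 35 in WT (48.6%, CI 31.4% to 66%), but among cells with a count the median was 11.8 in 3xTg and 30.8 in WT. Summed counts were 460 (CI 419 to 504) and 985 (CI 924 to 1048), a log2 ratio of −1.21. By run, the CPM was 30.4 in WT 1 to 22, 12 in 3xTg 24 to 55, 21.7 in WT 57 to 74, 13.3 in 3xTg 76 to 92 and 60.8 in WT 94 to 96. Thus both 3xTg runs were below all 3 WT runs. Leaving out 1 cell at a time gave −1.57 to −0.92, and without the microglia-rich cells the ratio was −1.40. Averaged over cells, log2(normalized count + 1) was 2.16 ± 2.15 (SD over 33 cells) in 3xTg and 2.54 ± 2.85 (SD over 35 cells) in WT, so the difference was smaller than the spread of single cells.

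Gclc and glutathione reductase (Gsr), which returns oxidized glutathione to its reduced form, were each counted in 12 3xTg and 13 WT cells. The Gclc log2 ratio of sums was 0.06, against 2.64 for the first and −3.11 for the second runs. Gsr had 333 summed counts in 3xTg and 611 in WT, and 1 cell held 34.5% of the 3xTg sum.

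**Figure D4:**
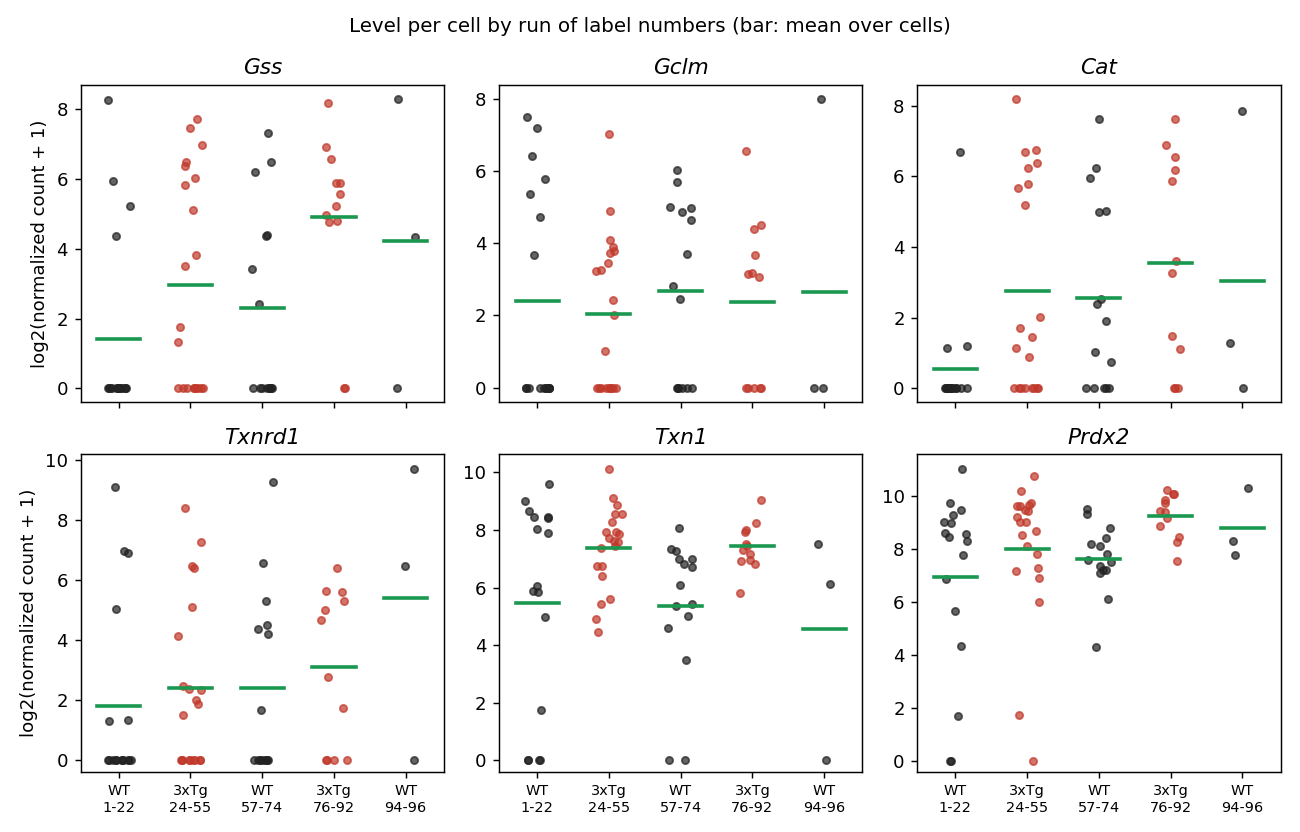
Log2(normalized count + 1) (y axis) of 6 members in each cell, by run of label numbers (x axis), for 3xTg (red) and WT (black). Green bars are means over cells. Txn1 is above 0 in every 3xTg cell and at 0 in 7 of 35 WT cells, whereas Gss, Gclm, Cat and Txnrd1 are at 0 in many cells of both genotypes.

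Catalase (Cat, chr2:103453904-103485153, − strand), the peroxisomal enzyme that splits hydrogen peroxide, had normalized counts between 0 and 290 in 3xTg cells (median 2.29) and between 0 and 231 in WT cells (median 0). It was counted in 22 of 33 3xTg cells (66.7%, CI 48.2% to 82%) and 15 of 35 WT cells (42.9%, CI 26.3% to 60.6%). Its sums of 1447 (CI 1373 to 1524) and 877 (CI 820 to 937) gave a log2 ratio of 0.61. The run WT 1 to 22 stood apart, with 7.13 CPM against 36.5 CPM in WT 57 to 74, 40.4 CPM in 3xTg 24 to 55, 38 CPM in 3xTg 76 to 92 and 86.8 CPM in WT 94 to 96. Accordingly, the ratio was 2.50 between the first and 0.06 between the second runs. Without the microglia-rich cells, 8 of them in WT 1 to 22, it was 0.25. Leaving out 1 cell gave 0.41 (3xTg 36) to 1.005 (WT 63, which held 26.4% of the WT sum).

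Glutathione peroxidases use glutathione to reduce peroxides, and Gpx4 acts on lipid peroxides within membranes. Gpx4 (chr10:80053510-80056439, + strand) had the largest summed count of all members, 20518 (CI 20238 to 20801) in 3xTg and 20191 (CI 19913 to 20471) in WT. Normalized counts of the gene lay between 0 and 1334 in 3xTg cells (median 521) and between 0 and 1667 in WT cells (median 517), and the log2 ratio of sums was −0.09. Between runs it was −0.30 for the first and 0.23 for the second. Gpx1, of cytosol and mitochondria, was counted in 29 3xTg and 32 WT cells and had a ratio of −0.13 (0.02 without the microglia-rich cells). Secreted Gpx3 was counted in 14 and 15 cells and had ratios of −1.35 and 0.77 between the first and second runs. Of the endoplasmic reticulum enzymes, Gpx7 was counted in 4 3xTg cells and 1 WT cell. Gpx8 was counted in 8 and 4 cells, with sums of 1367 and 77, and 1 cell, 3xTg 24, held 76% of the 3xTg sum.

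Superoxide dismutases differed little between genotypes by sums. Mitochondrial Sod2 (chr17:13007839-13018119, + strand) had normalized counts between 11.6 and 709 in 3xTg cells (median 202) and between 0 and 650 in WT cells (median 144). It was counted in 33 of 33 3xTg cells (100%, CI 89.4% to 100%) and 34 of 35 WT cells (97.1%, CI 85.1% to 99.9%). Sums of 8423 (CI 8244 to 8605) and 6758 (CI 6598 to 6921) gave a log2 ratio of 0.21, against −0.01 for the first and 0.35 for the second runs. Cytosolic Sod1, counted in 32 and 34 cells, had a ratio of 0.22, with 0.21 and 0.13 between the runs. Its median normalized count per cell differed more, at 167 in 3xTg and 81.9 in WT. Extracellular Sod3 had 1 count in 3xTg and 4 in WT.

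Peroxiredoxins reduce peroxides through a reactive cysteine, and sulfiredoxin (Srxn1) restores that cysteine once it is overoxidized. Of the 7 genes of this group, 6 passed the filter and 5 of these had a ratio above 0, against the 46.8% of all genes. Prdx2 (chr8:84969648-84974313, + strand), a cytosolic member abundant in neurons, had the largest sum, 20173 (CI 19896 to 20453) in 3xTg and 12577 (CI 12358 to 12799) in WT. Its normalized count per cell lay between 0 and 1741 in 3xTg cells (median 578) and between 0 and 2072 in WT cells (median 274). The log2 ratio was 0.57, just within the 1.5-fold limit, and was 0.36 between the first and 0.96 between the second runs. Without the microglia-rich cells it was 0.34. By run, the CPM was 373 in WT 1 to 22, 478 in 3xTg 24 to 55, 335 in WT 57 to 74, 652 in 3xTg 76 to 92 and 549 in WT 94 to 96.

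Prdx5, found in mitochondria, peroxisomes and cytosol, was the steadiest of the group between runs, with log2 ratios of 0.49 and 0.47 and 0.51 over all cells. It was counted in 31 3xTg and 27 WT cells. Cytosolic Prdx1 had a ratio of 0.45, with 0.73 and 0.25 between the runs. Mitochondrial Prdx3 was the only group member past the filter with a ratio below 0, at −0.35, and its sign differed between the runs (−0.49 and 0.29). Prdx6, which uses glutathione, was at 0.20 over all cells, with 1.23 and −0.28 between the runs and 0.51 without the microglia-rich cells. Srxn1 was at 0.29, with 0.47 and −0.21, and at 0.47 without those cells. Prdx4, of the endoplasmic reticulum, was counted in 17 3xTg cells (51.5%) and 8 WT cells (22.9%) and did not pass the filter.

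Thioredoxin passes electrons from its NADPH-dependent reductase to peroxiredoxins and other proteins, with Txn1 and Txnrd1 in the cytosol and Txn2 and Txnrd2 in mitochondria. Txn2 (chr15:77915051-77928994, − strand) had the largest sum of the group over both genotypes together, 7374 (CI 7207 to 7544) in 3xTg and 7514 (CI 7345 to 7686) in WT. Its normalized count lay between 0 and 699 in 3xTg cells (median 200) and between 0 and 1304 in WT cells (median 141). The log2 ratio was −0.14, with −0.39 and 0.33 between the runs. Txn1 (chr4:57943373-57956411, − strand) was counted in 33 of 33 3xTg cells (100%, CI 89.4% to 100%) and 28 of 35 WT cells (80%, CI 63.1% to 91.6%). Per cell, its normalized count lay between 21.1 and 1109 in 3xTg cells (median 182) and between 0 and 772 in WT cells (median 67.8). Sums of 7529 in 3xTg and 4669 in WT gave a log2 ratio of 0.58, at the 1.5-fold limit without passing it, with 0.36 and 0.82 between the runs and 0.69 without the microglia-rich cells. Averaged over cells, log2(normalized count + 1) of Txn1 was 7.40 ± 1.23 (SD over 33 cells) in 3xTg and 5.34 ± 3.13 (SD over 35 cells) in WT, a difference of 2.07 that was 1.56 relative to the median gene, the largest of the 24 members. In CPM, WT 57 to 74 and WT 94 to 96 were lowest (107 and 106), WT 1 to 22 was at 169, and the 3xTg runs were at 217 and 188.

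Txnrd1 (chr10:82833951-82897724, + strand) was lower in 3xTg by sums, with 1211 counts (CI 1144 to 1281) against 2220 (CI 2129 to 2314) and a log2 ratio of −0.98. It was, however, counted in more 3xTg cells, 20 of 33 (60.6%, CI 42.1% to 77.1%) against 15 of 35 (42.9%, CI 26.3% to 60.6%). Normalized counts lay between 0 and 333 in 3xTg cells (median 3.01) and between 0 and 822 in WT cells (median 0). The highest values were thus in WT cells. Averaged over cells, log2(normalized count + 1) of Txnrd1 went the other way, at 2.64 ± 2.70 (SD over 33 cells) in 3xTg and 2.36 ± 3.27 (SD over 35 cells) in WT, and the difference of 0.29 became −0.22 only relative to the median gene. Cell WT 73 held 27.0% of the WT sum, and without it the ratio was −0.58. By run, the CPM was 44.6 in WT 1 to 22, 37.8 in 3xTg 24 to 55, 60 in WT 57 to 74, 26.1 in 3xTg 76 to 92 and 231 in WT 94 to 96. The Txnrd1 ratio was −0.24 between the first and −1.20 between the second runs, and −0.14 without the microglia-rich cells. Txnrd2 was counted in 17 3xTg and 9 WT cells, and its ratios were 1.24 and −0.33 between the runs.

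Glutathione transferases join glutathione to electrophiles. Gstp1 (chr19:4035411-4037912, − strand) had the largest sum among them, 14717 (CI 14480 to 14957) in 3xTg and 11760 (CI 11548 to 11975) in WT. Normalized counts per cell lay between 0 and 994 in 3xTg cells (median 397) and between 0 and 967 in WT cells (median 276), and its log2 ratio was 0.21, with 0.19 and 0.33 between the runs and 0.06 without the microglia-rich cells. All of its counts above 0 were fractional (100%, tolerance 0.001), and across the 38 members this share ran from 0% to 100%, with Prdx5, Txnrd2, Gstm1, Gstm5, Txn1, Prdx1 and Gpx4 between 91.4% and 98.5% and Gpx1 at 3.28%. Where a member has a near-identical copy, as Gstp1 has in Gstp2, reads may be split between them and its level is uncertain. The deposited counts of Gstp2 summed to 175 in 3xTg and 150 in WT. How far the fractional counts come from such a split was not tested. Gstm5, Gsta4 and Gsto1 had ratios of −0.13, 0.16 and 0.08 over all cells, and each changed sign between the pairs of runs. Without the microglia-rich cells they were at −0.49, −0.01 and 0.17. Gsto1 was counted in 27 3xTg cells (81.8%) and 19 WT cells (54.3%). Gstm1 was counted in 6 and 10 cells and in none of the 12 cells of 3xTg 76 to 92.

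Glutaredoxins remove glutathione from protein cysteines, and methionine sulfoxide reductase (Msra) repairs oxidized methionine. Glrx (chr13:75839886-75850151, + strand) had sums of 8341 (CI 8163 to 8522) in 3xTg and 5274 (CI 5133 to 5418) in WT. Normalized counts of the gene lay between 0 and 1235 in 3xTg cells (median 128) and between 0 and 695 in WT cells (median 92.4). The log2 ratio was 0.55, with 0.44 and 1.19 between the runs, and 0.78 without the microglia-rich cells. Yet WT 94 to 96 had 387 CPM, above both 3xTg runs (226 and 229). Glrx3 had a ratio of 0.40, with 0.49 and 0.55 between the runs and 0.09 without the microglia-rich cells. Glrx5, a mitochondrial iron-sulfur cluster protein, was counted in 16 of 33 3xTg cells (48.5%, CI 30.8% to 66.5%) and 5 of 35 WT cells (14.3%, CI 4.81% to 30.3%), with sums of 442 and 247. Msra had a ratio of −0.06, and of −0.54 without the microglia-rich cells.

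Transcripts of NRF2 itself were scarce. Nfe2l2 was counted in 2 3xTg cells and 1 WT cell, with 14 and 15 summed counts, and at this depth no difference was detectable. Keap1, its inhibitor, was counted in 17 and 11 cells, and its log2 ratio was 1.85 between the first and −1.31 between the second runs. The inducible heme oxygenase Hmox1 was counted in 1 3xTg and 2 WT cells, and the quinone reductase Nqo1 in 5 and 4. By contrast, the constitutive heme oxygenase Hmox2 (chr16:4726361-4766249, + strand) was counted in 28 of 33 3xTg cells (84.8%, CI 68.1% to 94.9%) and 25 of 35 WT cells (71.4%, CI 53.7% to 85.4%). Its normalized count per cell lay between 0 and 614 in 3xTg cells (median 90.6) and between 0 and 716 in WT cells (median 76.1). Sums of 5401 (CI 5258 to 5547) and 4548 (CI 4417 to 4682) gave a ratio of 0.14, with −0.43 and 0.71 between the runs and −0.04 without the microglia-rich cells.

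The summed counts rank members by reads, which also grow with transcript length, so levels of different members were compared as CPM per kilobase of the longest coding transcript (GENCODE M21). Gpx4 was highest in both genotypes, with 562 in 3xTg and 596 in WT, followed by Gstp1 with 488 and 421. Prdx2, Sod1, Gstm5 and Gpx1 came next, between 210 and 341 in 3xTg and between 216 and 245 in WT. Catalase was at 15.1 and 9.86, and the ligase subunit Gclm at 2.24 and 5.18.

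Beyond the members, 93 further genes of glutathione, thioredoxin-fold, metal and selenium, NADPH and NRF2 pathways were found by symbol, and 39 passed the filter. By the rule used for the members, 7 of the 39 were called higher in 3xTg and 5 lower, against 11.8% and 16.3% of all genes. Of the other glutathione genes, 3 of 10 were higher and 2 lower. Glo1 and Hagh, the glyoxalases that clear methylglyoxal with glutathione, had log2 ratios of 1.16 and 1.07, and Esd, an S-formylglutathione hydrolase, had 0.74. Without the microglia-rich cells Esd was at 0.58, just short of the 1.5-fold limit. Glo1 had a count in 31 3xTg cells and in 27 WT cells, and its ratios were 0.70 and 1.66 between the runs. Ggt5, a glutamyl transferase acting on glutathione, was at −1.81, and Slc1a1, a neuronal glutamate and cysteine transporter, at −0.85. Cell WT 18 decided the Slc1a1 value, since without it the ratio was −0.25. Of the other groups, the higher genes were Txndc16 (0.76), the paraoxonase Pon2 (1.72), Pgls of the pentose phosphate pathway (1.08) and Cul3, a ubiquitin ligase scaffold that works with KEAP1 (1.78). Txndc16 was at 0.57, within the limit, without cell 3xTg 50. For Cul3 the sign differed between the runs (2.95 and −0.35).

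The ferritin subunits Ftl1 and Fth1, which store iron, and the metallothionein Mt2 were lower in 3xTg by sums, with log2 ratios of −2.13, −1.14 and −0.92. Both ferritins were lower in both pairs of runs, at −2.16 and −2.29 for Ftl1 and at −1.14 and −1.32 for Fth1. Without the 12 microglia-rich cells, however, Ftl1 was at −0.06 and Fth1 at 0.06. Mt2 was at −0.61 without those cells and at −0.57, within the limit, without cell WT 73, and its sign differed between the runs (0.91 and −2.70). Glo1 and Ggt5 were at 1.20 and −1.92 without them.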

How the data were processed

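RNA of 68 single neurons (33 3xTg, 35 WT) was sequenced after poly-A capture. With Strand NGS, the authors trimmed reads, aligned them against RefSeq transcripts (mm10), dropped duplicates and deposited estimated counts per gene, which need not be whole. They also deposited log2 values normalized with the DESeq2 algorithm, used here only as an alternative.

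Size factors were calculated from the deposited counts as in DESeq2 (787 genes counted in every cell). For sums, counts were rounded, added over the cells of a genotype and divided by the genotype's total as CPM. Genes had at least 1 count in at least 50% of all cells, whatever their genotype. Members and all other genes were called higher or lower by the same rule. It needed a fold of 1.5 by sums. It also needed log2(normalized count + 1), averaged over cells and taken relative to the median gene, to move the same way. An alternative could lose a call through the fold, the filter or this condition. Sums carry exact 95% Poisson intervals, and shares of cells exact 95% Clopper-Pearson intervals. They cover counting error only, since reads were amplified and no molecular identifiers are stated. Each genotype is 1 sample, so no p-value is given. No 2 cells had identical counts.

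Every member is named. Values are given in full for members past 1.5-fold and for the largest sum in each role group, and other pathway genes are named when past 1.5-fold. The members, lists and rules were chosen with earlier results of these data known. Symbols not found among the other pathway genes numbered 9. Alternatives were other filters, pseudocounts, scalings, thinned cells, runs of label numbers, and leaving out cells. The microglia limit, the filter of 20% of cells and the rule on both pairs of runs were chosen after seeing the data. The calculations were tested on simulated data. Python 3.11.15, numpy 2.4.6, scipy 1.17.1, pandas 2.3.3, matplotlib 3.10.9, R 4.3.3 and edgeR 4.0.16 (TMM factors) were used. Gene coordinates are those of the deposited table, in mm10. An item withheld from the text is not reported here.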

Additional observations from a re-analysis of the deposited data

How the results depend on the processing

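The 2 members higher in 3xTg (of 24, against 11.8% of genes) depended on the setting. Their number was 0 of 17 with the filter of the methods (9.28% of genes), which Cat and Gss do not pass, and 0 of 24 with a fold of 2 (4.09%). It was 4 of 32 with a filter of 20% of cells (15.7%), 4 of 24 without cells holding a marker of another cell type (12.1%), 5 of 24 in thinned cells (12.4%) and 6 of 38 with no filter (16.7%). It was 8 of 26 between the second runs (16.1%), 9 of 18 with medians over cells (34.8%) and 9 of 24 with sums of normalized counts (18.1%). Between the first runs it was 2 of 19 (22% of genes) and without the microglia-rich cells 2 of 25 (11.8%), but these were Prdx1 and Prdx6, and Txn1 and Glrx. Between the first runs the ratios of Cat (2.50) and Gss (0.96) were past 1.5-fold, but 16 of 38 cells held a count of each, short of the filter.

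The 2 members lower (of 24, against 16.3% of genes) became 0 of 17 with the filter of the methods (12.7%) and 0 of 18 with medians (8.94%). Gclm alone was called, as 1 of 19, between the first runs (14.8%), 1 of 26 between the second runs (31.1%), 1 of 24 with a fold of 2 (6.15%), 1 of 24 without cells holding a marker of another type (17.6%) and 1 of 25 without the microglia-rich cells (19.5%). It was 4 of 32 with a filter of 20% of cells (20.2%) and 5 of 38 with no filter (24.4%). With no filter and between the second runs the Txnrd1 ratio (−0.98 and −1.20) was past 1.5-fold, and its call was lost because its mean over cells, relative to the median gene there, was not lower. Leaving out 1 cell at a time gave 0 to 5 higher, with 0 without WT 6, 16, 18, 67 or 72 and 5 without 3xTg 49, and 1 to 2 lower, with 1 without WT 73 or WT 96.

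The median member ratio of 0.21 (median gene −0.049) became −0.012 between the first runs (gene 0.12, with 19 members past the filter there). It was 0.13 in thinned cells (gene −0.032), 0.31 between the second runs (gene −0.16), 0.094 without the microglia-rich cells (gene −0.089), 0.56 with medians (gene 0.43) and 0.34 with sums of normalized counts (gene 0.074). Leaving out 1 cell gave 0.15 to 0.24. The gap of 0.41 in means over cells was 0.062 and 0.93 between the first and second runs, 0.60 without cells holding a marker of another type, 0.22 without the microglia-rich cells, and 0.28 to 0.59 leaving out 1 cell. TMM factors, CPM, both pseudocounts and the authors' values moved it less than leaving out 1 cell did. The causes were not tested. No paired analysis was possible because label numbers are not shared between genotypes. No value carries an error across animals.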
